A study of Mus musculus with 10 samples.

Results

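N6-methyladenosine (m6A), a mark on mRNA, was mapped in the numbered zinc finger protein genes of the mouse, taken as all genes whose symbol is Zfp followed by digits alone, with Zfp36 and Zfp423 left out. The GENCODE M21 annotation of GRCm38 (mm10) held 372 such genes, of which 363 were protein-coding, beside 21951 protein-coding genes in all. A gene was counted as carrying a peak when both ends of a listed peak lay in exons of 1 of its transcripts on its strand, whatever symbol the peak was listed under. By this rule 54 of the 372 genes carried a peak in at least 1 list and 318 carried none.

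The peaks came from methylated RNA immunoprecipitation and sequencing (MeRIP-seq) of the mouse preadipocyte line 3T3-L1, which a hormone cocktail turns into fat cells. Cells given dimethyl sulfoxide (DMSO), the solvent, were taken as preadipocytes (DMSO Pre), at the mitotic clonal expansion stage (DMSO MCE) and as mature adipocytes (DMSO Diff), and cells given 20 μM rhein, a plant anthraquinone that inhibits the m6A demethylase Fto, were taken at the latter stages (rhein MCE and rhein Diff), with treatment from day 0 to day 3. Each of the 5 conditions had 1 immunoprecipitate and 1 input, 10 libraries in all, and 1 peak list was given per condition, so the spread among replicates was not measured and no p-value is given. The lists held 2824 to 5128 peaks, with no read numbers, so the depth is unknown, and 1 value per peak. This value is headed as a log2 fold change but is too high to be one, and it is called the score here and serves only to rank peaks within a list. The rhein MCE and rhein Diff lists were nearly the same throughout. For the zinc finger genes 23 of 23 spans were identical, with a median score difference of 0.00522. Of the rhein MCE peaks of other coding genes, 2555 of 2556 shared bases with rhein Diff. The rhein lists were counted as 1, which left 4 distinct lists. Whether 1 is a copy of the other or both come from a joint call is not known. The stage behind the rhein list is therefore uncertain in every comparison below. None of the 5 adipocyte markers examined (Pparg, Cebpa, Fabp4, Adipoq and Plin1) had a peak in any list, DMSO Diff included, while 3 of 5 preadipocyte or fibroblast markers had one in each DMSO list and 2 in rhein MCE. A gene can lack a peak because it lacks methylation or because it lacks RNA, and these lists cannot tell the cases apart.

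Zinc finger proteins of this kind hold repeated small folds in which cysteines and histidines grip a zinc ion, and a row of such fingers reads a DNA or RNA sequence. The largest branch carries a KRAB domain, which recruits the scaffold Trim28 and with it a histone methyltransferase and heterochromatin proteins to silence retroelements and imprinted loci. Its genes lie in clusters that arose by repeated duplication, and the whole row of fingers is usually encoded by the last exon. In mRNA, m6A is known to gather in long internal exons and in the last exon around the stop codon, which makes zinc finger genes with a long coding last exon a natural place to look for it. Several members without a KRAB domain are known in fat cells, such as Zfp638 and Zfp217, which favour adipogenesis, Zfp521, which restrains it, and Zfp516, which drives thermogenic genes.

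The following stretches are shown because they lay under peaks of 3 or 4 distinct lists in the genes with the most repeatable methylation. Each is the GGAC nearest to the middle of the bases that all those lists have in common, read 5′ to 3′ on the strand of the gene from the RefSeq copy of GRCm38, with GGAC, the core of the motif of the methyltransferase complex, in capitals.
Zfp91: ttgggcactgGGACagtgcagact
Zfp740: caaaggtgcaGGACcaagactgaa
Zfp462: agaagggaggGGACagacagagga
Zfp771: ggggcacttgGGACtggcacctga
Zfp445: tcagaatactGGACtgaaagaaaa
Zfp703: ccggcgaactGGACaagaaagagc
The Zfp91 stretch lies at chr19:12770001-12770024 on the minus strand, in the 3′ UTR, with its motif 24 bases past the stop codon. That of Zfp740 lies at chr15:102212954-102212977 on the plus strand, 278 bases past the stop codon, that of Zfp462 at chr4:55080944-55080967 on the plus strand, 80 bases past it, and that of Zfp771 at chr7:127254636-127254659 on the plus strand, 28 bases past it. The Zfp445 stretch, at chr9:122853556-122853579 on the minus strand, and the Zfp703 stretch, at chr8:26979040-26979063 on the plus strand, are coding and lie in the last exon, 1656 and 1045 bases before the end of the stop codon. Other repeated sites held a GGAC in their common bases too, such as a Zfp292 site of 3 lists. That stretch lies at chr4:34806377-34806400 on the minus strand, in the last exon, 1430 bases before the end of the stop codon. A further Zfp292 site of 3 lists, with 125 common bases, held none there. The repeated sites of Zfp146, Zfp207, Zfp281, Zfp503, Zfp638 and Zfp871 held none in the bases common to the lists. Those were stretches of 25 to 100 bases. For the sites of Zfp146, Zfp281, Zfp638 and Zfp871 in 3 lists the whole peaks held none either, while the Zfp207 peaks of DMSO Pre and rhein MCE and several Zfp503 peaks held the motif outside the common bases.

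The first question was how many of these genes carried m6A in each condition. In DMSO Pre 22 of the 372 genes had a peak, or 5.91% (95% Wilson interval 3.94 to 8.79), against 6.89% of all protein-coding genes. In DMSO MCE 46 had one, or 12.4% (9.40 to 16.1), against 12.5%. In DMSO Diff the count was 20, or 5.38% (3.51 to 8.16), against 6.69%. The DMSO shares were thus near the background of coding genes, and the high count at the MCE stage was a feature of that list as a whole. Rhein MCE gave 17 genes, or 4.57% (2.87 to 7.20), against 7.45%, and rhein Diff gave the same 17, against 7.46%, so that in the rhein lists the background lay just above the interval. These intervals cover counting error over genes only, and a difference between libraries of 1 condition was not measured.

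**Figure D1:**
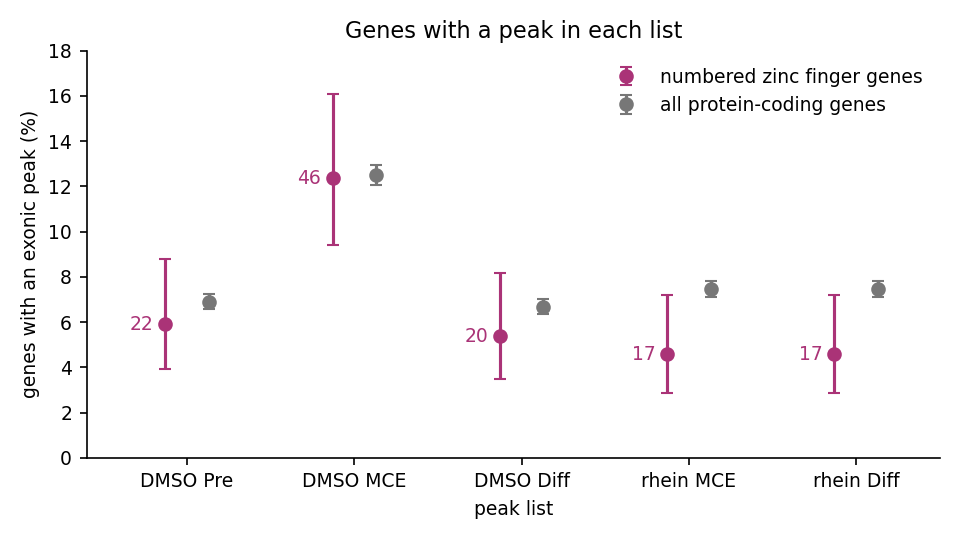
Percent of genes with an exonic peak (y axis) in each of the 5 peak lists (x axis), for the 372 numbered zinc finger genes and for all 21951 protein-coding genes. Points are shares, bars are 95% Wilson intervals and the numbers are zinc finger genes with a peak. The zinc finger share was 12.4% in DMSO MCE, next to 12.5% of all coding genes, and 4.57% in the rhein lists, below 7.45%.

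In numbers of peaks, zinc finger genes held 33 peaks for DMSO Pre, 81 for DMSO MCE, 31 for DMSO Diff and 23 for rhein MCE. This was 1.17% (0.833 to 1.64) of the DMSO Pre list, 1.58% (1.27 to 1.96) of DMSO MCE, 1.05% (0.743 to 1.49) of DMSO Diff and 0.749% (0.500 to 1.12) of rhein MCE. The rhein interval did not overlap that of DMSO MCE. Cut to the 2824 best-ranked peaks of every list, the DMSO MCE share was 1.35% (0.982 to 1.84) and the rhein MCE share 0.779% (0.515 to 1.18), and these intervals overlapped. At that length DMSO MCE kept 24 of its 46 genes, while rhein MCE kept all 17.

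Zinc finger peaks had ordinary ranks. Their median score was 7.45 for DMSO Pre, 6.93 for DMSO MCE, 8.28 for DMSO Diff and 8.61 for rhein MCE, beside 7.65, 7.14, 8.03 and 7.87 for peaks of other coding genes. Above the middle of the list by rank lay 45.5% of them for DMSO Pre, 38.3% for DMSO MCE, 51.6% for DMSO Diff and 60.9% for rhein MCE. The best-placed zinc finger peak of each list ranked 105 of 2824, 155 of 5128, 132 of 2944 and 137 of 3069. Most genes had 1 peak (15 of 22 in DMSO Pre, 24 of 46 in DMSO MCE), and the most peaks in a gene were 4 in Zfp871 for DMSO Pre, 5 in Zfp608 for DMSO MCE and 3 in Zfp503 for DMSO Diff and rhein MCE, a number that Zfp516 also reached in DMSO Diff.

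The next question was how often the same gene was methylated in several conditions. Of the 54 genes with a peak, 28 had one in 1 distinct list, 9 in 2, 9 in 3 and 8 in all 4. Recurrence in 2 or more lists was thus 48.1% (35.4 to 61.1), with 55.1% (53.5 to 56.7) for the 3590 other coding genes with a peak inside the interval. The 8 genes found everywhere were Zfp91, Zfp207, Zfp445, Zfp462, Zfp503, Zfp516, Zfp608 and Zfp740. At the other end, 20 genes had a peak in DMSO MCE alone, among them Zfp330 and Zfp809. DMSO MCE was the longest list, with 5128 peaks. No such count is given for other coding genes, so the 20 show no difference from the background. Their highest score had a median of 6.90, against 7.63 for the 26 genes with a peak in DMSO MCE and in another list. Of the 20 genes 14 had 1 peak in DMSO MCE, against 10 of the 26, so the highest was more often taken over several peaks in the 26. At equal list length 9 of the 20 kept a peak, against 15 of the 26.

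**Figure D2:**
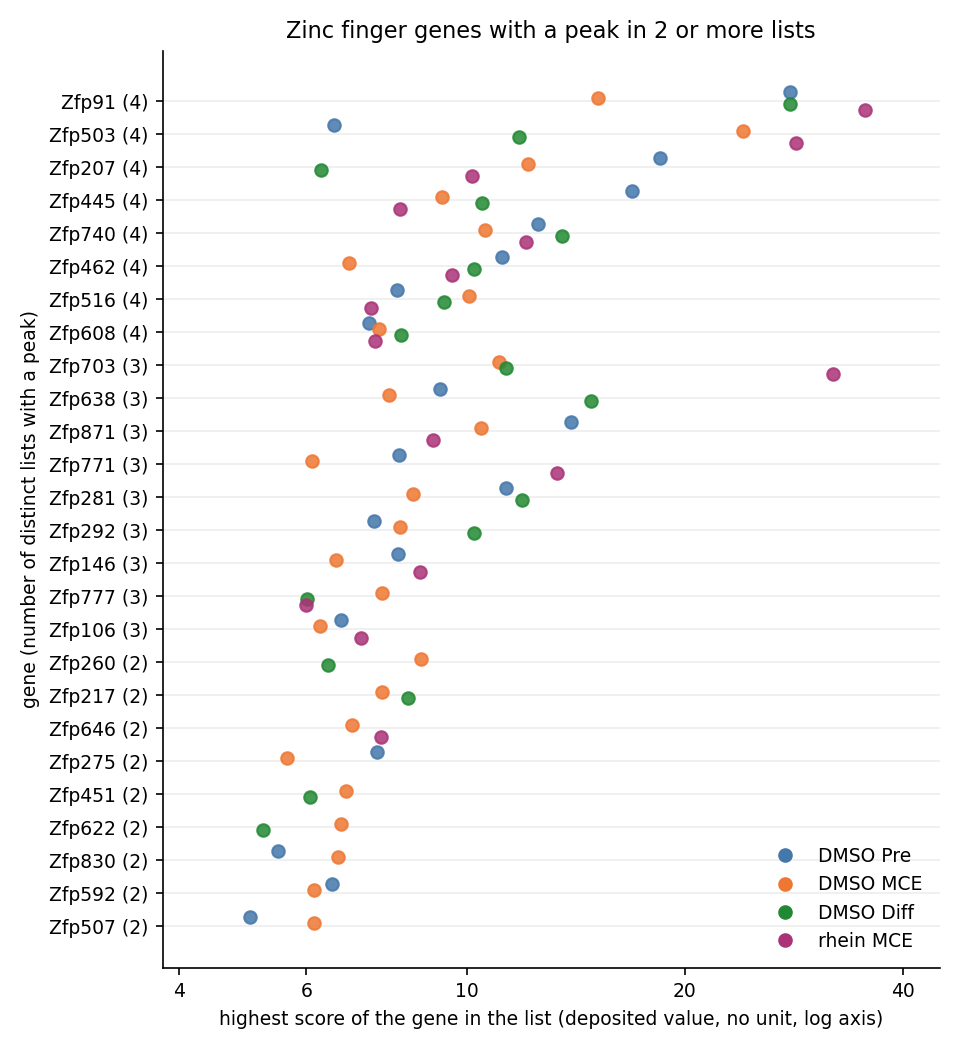
Highest score of each gene in each distinct list (x axis, deposited value with no unit, log axis) for the 26 zinc finger genes with a peak in 2 or more lists (y axis, number of lists in brackets), with points shifted slightly by list so that equal values stay visible. Scores rank peaks within a list. Within rhein MCE, Zfp91, Zfp703 and Zfp503 had the highest values, with ranks of 137, 159 and 189 of 3069. By rank, Zfp503 also stood high in DMSO MCE (155 of 5128) and Zfp91 in DMSO Pre (105 of 2824). Most other genes stayed under 15 in every list.

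Zfp91, a ubiquitin ligase of the noncanonical NF-kappaB pathway, had the best-ranked zinc finger peak of DMSO Pre and DMSO Diff. Its peak reached across the stop codon in every list. The score was 27.9 for DMSO Pre, 15.2 for DMSO MCE, 27.9 for DMSO Diff and 23.0 for rhein MCE. The ranks were 105, 369, 132 and 252. The span, chr19:12769870-12770144, was the same in DMSO Pre and DMSO Diff, where it held 275 bases, and it was 250 bases long in DMSO MCE and 225 in rhein MCE. The midpoint lay 31 to 44 bases into the 3′ UTR. A further Zfp91 peak at chr19:12795228-12795427, in exon 1 with its midpoint in the coding sequence close to the start codon, had an identical span in DMSO MCE (score 9.35, rank 1130 of 5128) and rhein MCE (score 35.5, rank 137 of 3069). It was not listed in DMSO Pre or DMSO Diff, so this end of the mRNA set the MCE-stage and rhein lists apart from the other stages while the stop codon site did not. Exons of a noncoding Zfp91 transcript had a further peak in DMSO Pre (score 14, rank 440) and DMSO MCE (9.23, rank 1198).

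Zfp740 and Zfp462 also had peaks with midpoints past the stop codon in every list. The Zfp740 span chr15:102212860-102213109, 250 bases of 3′ UTR with 5 GGAC, was identical in DMSO Pre (score 12.5), DMSO Diff (13.5) and rhein MCE (12.1), and DMSO MCE gave 2 shorter peaks within it (9.27 and 9.10). Its 5′ UTR had peaks too, with a score of 4.45 for DMSO Pre, 10.6 for DMSO MCE and 9.30 in rhein MCE, and none for DMSO Diff. The DMSO MCE peak shared bases with each of the others there, but the DMSO Pre and rhein MCE peaks had no base in common. Zfp462, a chromatin protein that restrains lineage genes in embryonic stem cells, had 1 peak per list. Its midpoint lay 86 to 99 bases past the stop codon in each case. Its scores were 11.2 for DMSO Pre, 6.88 for DMSO MCE, 10.2 for DMSO Diff and 9.53 for rhein MCE. With 33 fingers and 2495 residues Zfp462 was one of the largest proteins of the set, and its coding sequence carried no peak.

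In Zfp445, which guards genomic imprints, the repeated site was coding. Its last-exon peak scored 16.9 for DMSO Pre, 9.23 for DMSO MCE, 10.5 for DMSO Diff and 8.07 for rhein MCE, with the midpoint 1653 to 1666 bases before the end of the stop codon. DMSO Pre and DMSO MCE gave the identical span, chr9:122853442-122853691. In these 2 lists the span touched a finger codon, and the shorter spans of the other lists did not.

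Zfp503 and its relative Zfp703, corepressors that lack a row of classical fingers, stood out by score. Zfp503 had peaks at 3 places of its last exon, and at 2 of them in all 4 lists. At the place with midpoints 171 to 234 bases before the end of the stop codon the score was 5.75 for DMSO Pre, 8.68 for DMSO MCE, 11.8 for DMSO Diff and 28.5 for rhein MCE, where the peak ranked 189 of 3069. Further upstream, with midpoints 1084 to 1246 bases before that end, the highest score was 6.56 for DMSO Pre, 24.0 for DMSO MCE (rank 155 of 5128), 9.48 for DMSO Diff and 13.7 for rhein MCE. The upstream place thus ranked higher in DMSO Pre and DMSO MCE and the downstream one in DMSO Diff and rhein MCE. A peak across the stop codon itself was listed in DMSO Pre (5.84), DMSO MCE (11.9) and rhein MCE (5.88) and not in DMSO Diff. Zfp703 had no peak in DMSO Pre, and its last-exon coding span chr8:26978945-26979169 was identical in DMSO MCE (score 11.1, rank 747 of 5128) and rhein MCE (score 32.1, rank 159 of 3069), with a shorter peak within it in DMSO Diff (6.50, rank 2216 of 2944). DMSO Diff had in addition a 3′ UTR peak of Zfp703 with a score of 11.3.

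**Figure D3:**
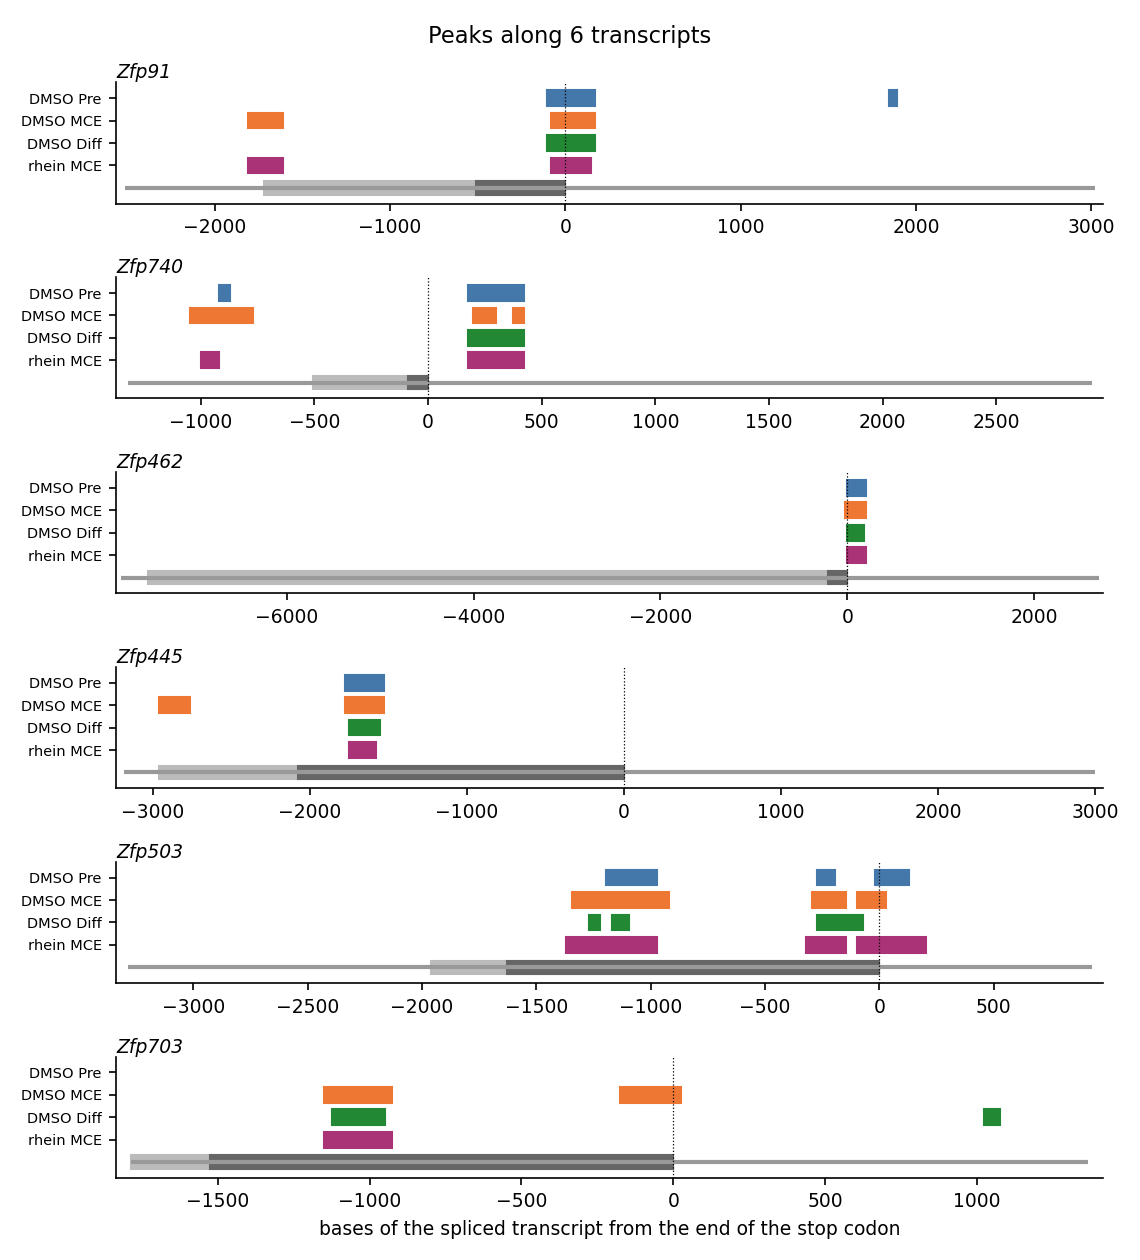
Peaks of the 4 distinct lists (coloured boxes, 1 row per list) along the spliced transcripts of 6 zinc finger genes, in bases from the end of the stop codon (dotted line). The bar at the bottom of each panel shows the transcript as a line, the coding part in light grey and the last-exon coding part in dark grey. Zfp91, Zfp740 and Zfp462 repeated with midpoints past the stop codon, and the Zfp91 peaks reached across it. Zfp445 and Zfp703 repeated far inside the last coding exon, and Zfp503 at 2 places within its last coding exon.

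The remaining genes found in every list had lower ranks or were less exact in place. Zfp207, which supports spindle assembly, had its 3′ UTR peak in all 4 lists, with scores of 18.5 for DMSO Pre, 12.1 for DMSO MCE, 6.29 for DMSO Diff and 10.2 for rhein MCE. The DMSO MCE span was placed on a transcript with other exons and shared no exonic base with the other lists there, and on the transcript chosen by the 25-base step of the peak caller it covered 275 exonic bases, a choice made after the data were seen. Zfp516 had 3′ UTR peaks with scores of 8.0, 10.1, 9.31 and 7.37 in DMSO Pre, DMSO MCE, DMSO Diff and rhein MCE, but no base was common to all 4. Zfp608 was methylated within its long internal exon 5, with highest scores of 7.31, 7.55, 8.12 and 7.46, and no site of it was in all 4 lists.

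Rhein was then compared with DMSO at the MCE stage. Of the 46 genes with a peak in DMSO MCE, 15 had one in rhein MCE, which is 32.6% (20.9 to 47.0) of the DMSO MCE genes and 88.2% (65.7 to 96.7) of the 17 rhein genes. For other coding genes these shares were 45.8% and 76.2%. Peak by peak, 16 of 81 DMSO MCE peaks shared at least 1 exonic base with a rhein MCE peak, or 19.8% (12.5 to 29.7), against 31.6% (30.3 to 33.0) of the peaks of other coding genes. These intervals narrowly did not overlap, but with the transcript chosen by the 25-base step of the peak caller, an alternative added after the data were seen, the zinc finger share was 21.0% (13.5 to 31.1), which overlapped. At equal list length the shares were 31.6% (19.1 to 47.5) of 38 peaks and 46.4% (44.4 to 48.5), with intervals that overlapped.

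Genes with a DMSO MCE peak and no rhein peak included Zfp281, Zfp638 and Zfp217. Zfp281, a regulator of pluripotency genes, had last-exon coding peaks with highest scores of 11.3 for DMSO Pre, 8.42 for DMSO MCE and 11.9 for DMSO Diff. Zfp638, a coactivator of adipogenic transcription, had coding peaks in exon 22 with scores of 9.18 for DMSO Pre, 7.80 for DMSO MCE and 14.8 for DMSO Diff. Both were therefore listed at all 3 DMSO stages and in neither rhein list, a pattern that only Zfp292 shared. Other coding genes with this pattern were not counted, so these 3 genes show no difference from the background. In Zfp292, named here after its values were seen, 2 sites of the last coding exon were found at all 3 stages, with scores from 7.30 to 10.2. Zfp217, which binds the m6A writer Mettl3, had coding peaks in DMSO MCE (3 peaks, highest score 7.63) and DMSO Diff (2 peaks, highest 8.28), the highest with the same span, chr2:170114288-170114512, in both. Zfp330 (score 10.2, 3′ UTR) and Zfp260 (8.64, 5′ UTR) had the highest scores of the DMSO MCE genes without a rhein peak.

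In the reverse direction rhein MCE had a peak in just 2 genes that DMSO MCE lacked. Zfp318, which controls antibody splicing in B cells, had 1 coding peak with a score of 7.34 (rank 1870 of 3069). Zfp326, a protein of the splicing machinery, had 2 coding peaks with scores of 6.33 and 5.17. Neither gene had a peak in any DMSO list, and all of these peaks lay in the lower part of the rhein list.

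Some members kept the same site under rhein. The Zfp146 peak at chr7:30161269-30161368, 100 bases of 3′ UTR with its midpoint 418 bases past the stop codon, had one span in DMSO Pre (score 8.04), DMSO MCE (6.60) and rhein MCE (8.61). Zfp771 repeated with midpoints just past the stop codon. Its scores there were 8.06 in DMSO Pre, 6.11 in DMSO MCE and 8.0 in rhein MCE. Rhein MCE added a 5′ UTR peak of Zfp771 with a score of 13.3 that no DMSO list had. Zfp871 carried a row of 3′ UTR peaks, 4 in DMSO Pre with scores of 10.5 to 13.9 and a midpoint 256 to 606 bases past the stop codon, 3 in DMSO MCE beside a coding one, and 1 in rhein MCE (8.97). These 3 genes had no peak in DMSO Diff.

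Between the DMSO stages, 19 of the 22 DMSO Pre genes also had a peak in DMSO MCE, or 86.4% (66.7 to 95.3), which is 41.3% (28.3 to 55.7) of the 46 DMSO MCE genes. For other coding genes these shares were 71.7% and 39.7%. Of the 20 DMSO Diff genes 17 had one in DMSO MCE, or 85.0% (64.0 to 94.8), which is 37.0% (24.5 to 51.4) of the DMSO MCE genes, with 75% and 40.3% for other coding genes. DMSO Pre and DMSO Diff had 11 genes in common, 50% of the former and 55.0% of the latter, with 54.0% and 55.5% for other coding genes. All of these shares of other genes lay inside the zinc finger intervals. Single sites recurred as well. Of the DMSO Pre peaks 63.6% (46.6 to 77.8) shared bases with DMSO MCE, with 46.3% (44.3 to 48.3) for other coding genes, and of the DMSO Diff peaks 80.6% (63.7 to 90.8) did, with 48.3% (46.3 to 50.3). The DMSO Diff share was above that of other genes with intervals that did not overlap, and at equal list length, with 60.0% (42.3 to 75.4) against 41.5% (39.5 to 43.5), they did. The genes of DMSO Diff without a peak in DMSO Pre were led by Zfp703, Zfp644 (score 8.82, coding, in no other list) and Zfp217, and those of DMSO Pre without one in DMSO Diff by Zfp871, Zfp771 and Zfp146.

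Merged where they shared exonic bases, the zinc finger peaks of the 4 distinct lists formed 100 sites. Of these 67 were in 1 list, 13 in 2, 13 in 3 and 7 in all 4, the last in 6 genes (Zfp91, Zfp445, Zfp462, Zfp503, Zfp516 and Zfp740). By the place of the highest-scoring peak, 4 of the 7 lay in the 3′ UTR and 3 in the last-exon coding part, while none lay in earlier coding exons, where 20 of the 67 sites of 1 list were found. No such count is given for other coding genes, so these numbers describe the zinc finger sites alone and show no difference from the background. As peaks were joined in pairs, a site of several lists need not hold a base common to all of them. The Zfp516 site of 4 lists held none, nor did sites of 3 lists in Zfp106, Zfp608 and the Zfp740 5′ UTR.

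Place was given by the midpoint of the peak on the longest coding transcript of the gene that held both ends. The last-exon coding part held 9 of 32 such peaks for DMSO Pre, or 28.1% (15.6 to 45.4), 26 of 78 for DMSO MCE, or 33.3% (23.9 to 44.4), 10 of 31 for DMSO Diff, or 32.3% (18.6 to 49.9), and 7 of 23 for rhein MCE, or 30.4% (15.6 to 50.9). Other coding genes had 17.3%, 19.9%, 17.6% and 18.2% there. The zinc finger share was the higher in every list, but the intervals failed to overlap in DMSO MCE alone, where other genes reached at most 21.1%. The 26 DMSO MCE peaks there came from 17 genes, and the interval takes peaks as independent, so it may be too narrow. The last-exon coding part is also long in zinc finger genes. It made up 21.1%, 22.8%, 23.7% and 24.2% of the transcripts that carried the peaks, against 10.1%, 10.8%, 9.36% and 11.2% for other genes, and this share of length was inside the interval in 3 lists and just below it in DMSO MCE. Other coding genes also had a higher share of peaks than of length in this place, in all 4 lists.

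The 3′ UTR held 14 of 32 peaks for DMSO Pre, or 43.8% (28.2 to 60.7), 27 of 78 for DMSO MCE, or 34.6% (25 to 45.7), 7 of 31 for DMSO Diff, or 22.6% (11.4 to 39.8), and 9 of 23 for rhein MCE, or 39.1% (22.2 to 59.2). Other coding genes had 40.2%, 39.2%, 39.8% and 40.5%, and only in DMSO Diff was that value level with the upper end of the interval. DMSO Diff had 3′ UTR peaks in 6 genes, Zfp91, Zfp207, Zfp462, Zfp516, Zfp703 and Zfp740. Earlier coding exons held 21.9%, 29.5%, 35.5% and 21.7% of zinc finger peaks and the 5′ UTR 6.25%, 2.56%, 9.68% and 8.70%. Within 200 bases of the stop codon lay 25% of the midpoints for DMSO Pre, 21.8% for DMSO MCE, 16.1% for DMSO Diff and 26.1% for rhein MCE, beside 21.4%, 24.5%, 23.6% and 22.7% for other genes, all inside the zinc finger intervals. Peaks that only a noncoding transcript of the gene held (1 in DMSO Pre and 3 in DMSO MCE, in Zfp91, Zfp646 and Zfp865) have no such place.

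**Figure D4:**
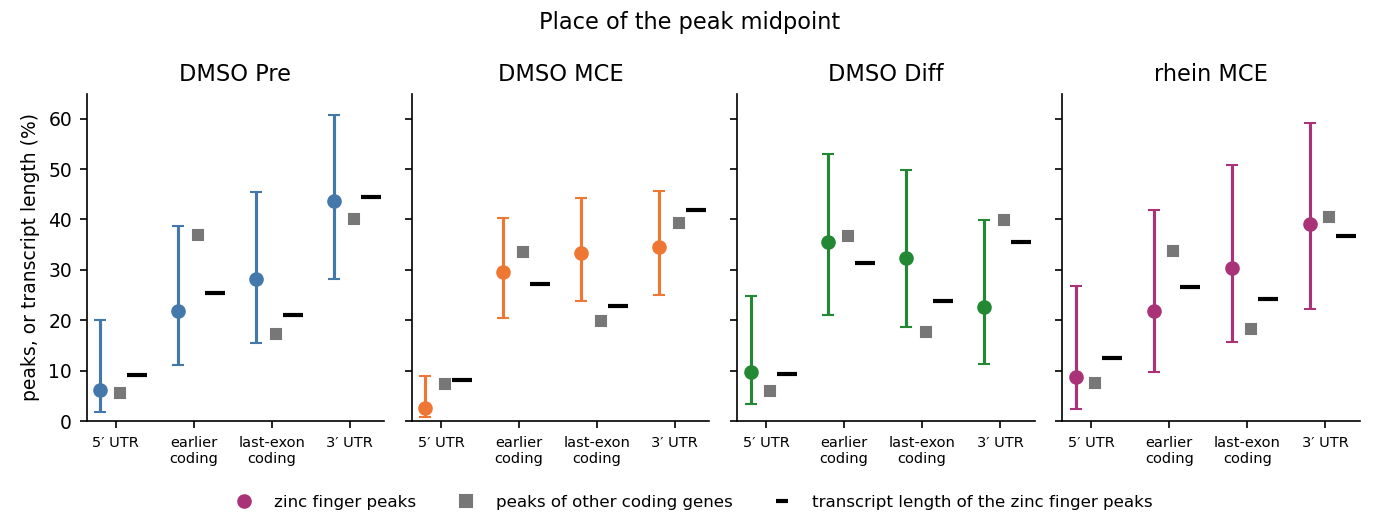
Percent of peaks by place of the midpoint in each distinct list (1 panel per list). Coloured points with 95% Wilson intervals are zinc finger peaks, grey squares are peaks of other coding genes and black dashes the share of transcript length that the place takes in the zinc finger transcripts. Zinc finger points lay above the grey squares in the last-exon coding part in all 4 panels, with 33.3% against 19.9% in DMSO MCE.

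Within the last coding exon, peaks were set against the fingers. A finger was read from the translated annotation as a cysteine, 2 to 4 residues, a cysteine, 12 residues, a histidine, 3 to 5 residues and a histidine, and only peaks on transcripts with a finger codon in the last-exon coding part could fall on one, which held for 7 of 9 peaks in DMSO Pre, 19 of 26 in DMSO MCE, 5 of 10 in DMSO Diff and 3 of 7 in rhein MCE. None of these 19 midpoints of DMSO MCE fell on a finger, where 3 counts of the total would allow a share of up to 15.8% and the Wilson interval reaches 16.8%, while finger codons made up 29.4% of the last-exon coding bases. Peaks of Zfp292, Zfp445 and Zfp777 touched a finger there, and 1 had 50% or more of its bases in finger codons. The stretch from the first to the last finger, linkers included, made up 54.3% of those bases and held 2 of the 19 midpoints, or 10.5% (2.94 to 31.4). The 19 peaks came from 14 genes, and these intervals take peaks as independent, so they may be too narrow. In DMSO Pre 1 of 7 midpoints fell on a finger, that of Zfp12, and in DMSO Diff and rhein MCE none of 5 and of 3 did, numbers too small to show a difference from the 15.7% and 39.5% of bases in fingers. Of the 31-base windows on fingers of all genes with a peak in any list, 97.9% occurred 1 time in the genome. This share is not given for the 14 genes alone, and whether repeated sequence bears on the place of the midpoints was not tested.

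The motif was found in zinc finger peaks about as often as in others. GGAC lay in 45.5% (29.8 to 62.0) of the DMSO Pre peaks, 59.3% (48.4 to 69.3) of DMSO MCE, 58.1% (40.8 to 73.6) of DMSO Diff and 69.6% (49.1 to 84.4) of rhein MCE, with 56.7%, 55.0%, 52.6% and 55.8% for peaks of other coding genes, each inside the interval. Searched on the strand of the RNA, it occurred 6.78, 7.93, 8.33 and 11.3 times per 1000 bases of zinc finger peaks. In the same transcripts outside peaks it occurred 3.44, 3.26, 3.41 and 3.91 times per 1000 bases, which gives ratios of 1.97, 2.43, 2.45 and 2.88. The peak sequence of these genes was thus richer in the motif than the rest of their mRNA in all lists.

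Which members carried a peak at all varied with the build of the gene. Over 362 genes with a complete coding transcript, 14 of 44 genes with 1 to 4 fingers had a peak in some list, or 31.8% (20.0 to 46.6), against 16 of 97 with 5 to 9, or 16.5% (10.4 to 25.1), and 21 of 206 with 10 or more, or 10.2% (6.76 to 15.1). Of the 15 genes without a finger 3 had a peak, or 20.0% (7.05 to 45.2), so the share did not fall steadily with the number of fingers. The linker TGEKP, which joins the fingers of classical arrays, was present at least 3 times in 209 genes, of which 7.18% (4.40 to 11.5) had a peak, while 25.5% (19.2 to 32.9) of the 153 genes with fewer did. By position, over all 372 genes, 18 of 211 genes with another member within 100 kb had a peak, or 8.53% (5.46 to 13.1), against 36 of 161 more isolated genes, or 22.4% (16.6 to 29.4). Chromosome 13, with 33 members, had none with a peak, and chromosome 7, with 91, had 9, where 54 of all 372 members did. Chromosomes 10 and 12, with 5 members each, had none either. Shares of all coding genes by chromosome are not given, so no difference between chromosomes is read from these counts. Members with a peak had longer transcripts than those without (median 4788 against 3130 bases), a smaller part of their coding sequence in the last exon (median 35.3% against 86.2%) and a distance to the nearest member of 1153 kb against 31.8 kb.

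Sequence that occurs several times in the genome moved with these classes. The authors removed reads of low mapping quality, and 44 members had fewer than 50% of their exonic 31-base windows unique. None of the 44 had a peak, which allows a share of up to 6.82% by 3 counts of the total and 8.03% by the Wilson interval, against 5 of 70 with 50% to 90% unique, or 7.14% (3.09 to 15.7), and 49 of 248 with 90% or more, or 19.8% (15.3 to 25.2). Within the last class the difference by linkers was still seen, with 14 of 125 genes, or 11.2% (6.79 to 17.9), against 35 of 123, or 28.5% (21.2 to 37.0). By position it was 13.4% (8.53 to 20.4) for genes with a near member and 26.4% (19.4 to 34.9) for isolated ones, with intervals that narrowly overlapped. Median transcript lengths were 3472 and 3723 bases for the linker classes and 3245 and 3958 bases for the position classes. How far transcript length, RNA level and mappable sequence take part in these shares was not tested.

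**Figure D5:**
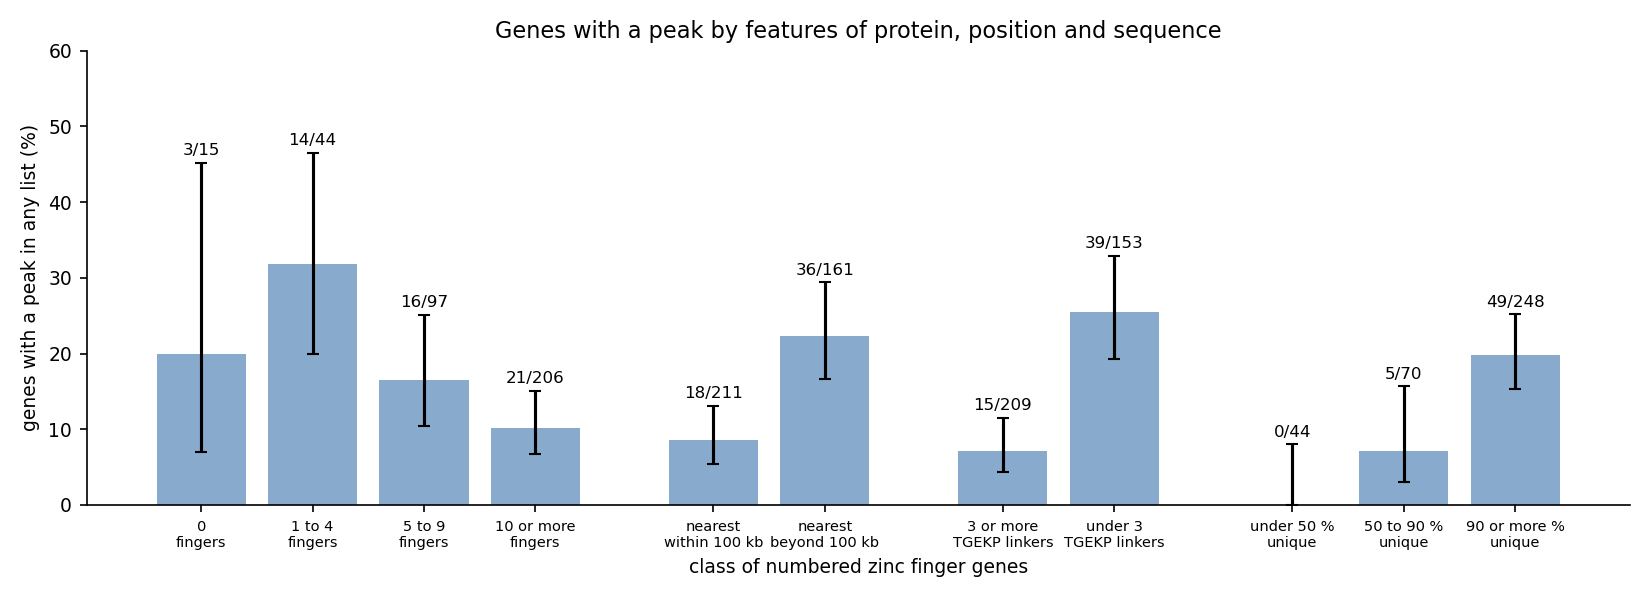
Percent of zinc finger genes with a peak in any list (y axis) by number of fingers, distance to the nearest other member, number of TGEKP linkers and share of exonic 31-base windows that occur 1 time in the genome (x axis). Bars are shares, lines 95% Wilson intervals and the numbers genes with a peak of genes in the class. Genes with 1 to 4 fingers (31.8%), under 3 linkers (25.5%) and 90% or more unique sequence (19.8%) had the highest shares of their groups.

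Members with known roles were examined as lists chosen for those roles. Of 6 genes of fat cell formation or metabolism, 4 had a peak: Zfp516, Zfp638 and Zfp217, given above, and Zfp521, with 1 low-ranked coding peak in DMSO Pre (score 4.60, rank 2681 of 2824). Zfp407, a coactivator of glucose transport genes, and Zfp467 had none. By list this came to 3 genes at each DMSO stage and 1, Zfp516, with rhein. Of 6 genes that act on imprints or retroelements, Zfp445 and Zfp809, which silences retroviral elements, had a peak, the latter in DMSO MCE alone (score 7.04, 3′ UTR), while Zfp57, Zfp568, Zfp708 and Zfp932 had none. Of 6 genes that act on RNA, ribosomes or the spindle, Zfp207, Zfp326, Zfp106 and Zfp622 had a peak. Zfp106, an RNA-binding protein, was listed in DMSO Pre (score 6.70), DMSO MCE (6.27) and rhein MCE (7.15), and Zfp622, a factor of ribosome assembly, in DMSO MCE (6.70) and DMSO Diff (5.22), in its first exon. Zfp598, which senses collided ribosomes, and Zfp346, which binds double-stranded RNA, had none. Of the 3 pluripotency or development genes Zfp281 and Zfp462 had a peak and Zfp42, a marker of naive stem cells, had none. Counts of this size cannot separate a list from the background given above.

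The cofactors through which KRAB zinc finger proteins silence their targets were examined beside them. Of 10 such genes, 4 had a peak for DMSO Pre, 8 for DMSO MCE, 4 for DMSO Diff and 4 for rhein MCE, where 6.89%, 12.5%, 6.69% and 7.45% of all coding genes did. These genes were picked for their role and their RNA level is not known, so the counts describe this list alone. Cbx1, a heterochromatin protein, and the remodeller Chd3 had one in all 4 lists, with highest scores of 9.43 to 16.7 and 7.93 to 13.8. Trim28 itself had 1 peak in DMSO MCE (score 10.8) and 1 in rhein MCE (51.4) and none in DMSO Pre or DMSO Diff. As the score only ranks peaks within a list, these 2 values do not measure a change with rhein. Setdb1, the methyltransferase it recruits, had a peak in DMSO Pre (6.94), DMSO MCE (7.52) and rhein MCE (8.43). Cbx3 and Hdac2 had no peak.

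The symbol printed in the lists would have given another set of genes. In DMSO MCE 71 rows bore a numbered zinc finger symbol, of which 61 lay in exons of that gene and 10 elsewhere, and 20 zinc finger peaks were listed under another symbol, 4 of them under another zinc finger gene and so among the 10. In DMSO Pre these numbers were 33, 26, 7 and 7, in DMSO Diff 31, 27, 4 and 4, and in rhein MCE 25, 20, 5 and 3, with none under another zinc finger gene. Several of the leading sites were affected. The Zfp91 stop codon site was listed under Cntf, the Zfp740 3′ UTR site under Itgb7, the Zfp771 site under Dctpp1 and both Zfp292 sites under Smim8. Conversely, rows named Zfp143 in DMSO Pre (score 21.3), DMSO Diff and rhein MCE lay in exons of Ipo7, and the row with the highest score under any zinc finger symbol, Zfp799 in DMSO Diff (39.9), lay in the noncoding gene Gm26693. Zfp703 rows in DMSO Pre, DMSO MCE and rhein MCE (scores 4.94 to 17.4) lay in Gm45371, so that by symbol Zfp703 would have counted as methylated in DMSO Pre. The paper shows Zfp50 among its examples of m6A peaks that rhein regulates. The symbol Zfp50, which RefSeq gives as an older name of Zbtb25, was not in the annotation, and Zbtb25 itself had no peak in any list. Whether the paper's Zfp50 is Zbtb25 is not known.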

How the data were processed

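MeRIP-seq was done on 1 immunoprecipitate and 1 input per condition. Per the study's methods and processing notes, the authors trimmed reads with Trim Galore 0.6.5, aligned them to mm10 with HISAT2 2.1.0 and filtered out duplicates (Picard 2.23.5) and poorly mapped reads (SAMtools 1.9). Their peaks came from exomePeak2 with its default parameters, and ChIPseeker 1.26 gave the nearest gene. The deposited value of each peak, headed as a log2 fold change but far too high to be one, was treated as a score that ranks peaks within a list. Which libraries entered each list was taken from its condition.

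Peaks were placed on GENCODE M21 transcripts and GRCm38 sequence with Python 3.11.15, pysam 0.24.0 and NumPy 2.4.6. Peaks of 2 lists counted as shared from 1 common exonic base on the strand of the gene. Intervals are Wilson 95% intervals (SciPy 1.17.1), and no test between conditions was possible. For shares of peaks the intervals take peaks of the same gene as independent, so they may be too narrow. Placement and sharing were checked with simulated peaks on annotated transcripts of these genes, and finger reading on constructed proteins. The members and lists were chosen with earlier results of these data known. Named genes are those with a peak in all 4 distinct lists, the 3 with the highest score in each list, the 3 leading each difference between DMSO MCE and rhein MCE and between DMSO Pre and DMSO Diff, those with an identical span in 3 lists, those with the most peaks in a list, and the role lists. Zfp292, Zfp12, Zfp777, Zfp646, Zfp865 and the genes whose rows lay elsewhere were named after their values were seen. Alternatives were the upper part of each list, equal list lengths, any exonic base, listed symbols and regions, the rhein Diff list, other rules for place, sharing, motif window and finger, and, added after seeing the data, the transcript chosen by the 25-base step of the peak caller.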

Additional observations from a re-analysis of the deposited data

How the results depend on the processing

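With the upper 50% of each list by score, the genes with a peak numbered 11 for DMSO Pre, 20 for DMSO MCE, 12 for DMSO Diff and 10 for rhein MCE, of which 3 were in all 4 lists and 15 in 2 or more, and in DMSO Pre 14.3% of 14 peaks lay in the last-exon coding part and 78.6% in the 3′ UTR. With lists of 2824 peaks each, DMSO MCE had 24 genes, and the shares of peaks found again were 45.5% for DMSO Pre in DMSO MCE, 60.0% for DMSO Diff in DMSO MCE and 31.6% for DMSO MCE in rhein MCE. By the region the authors listed, 48.7% of DMSO MCE peaks lay in the 3′ UTR. Why these values moved beyond the smaller number of peaks was not tested. By listed symbol Zfp91 and Zfp740 had a peak in 2 distinct lists rather than 4, Zfp771 in 1 rather than 3, and Zfp326 in 2 rather than 1, while the number of genes per list stayed within 1.5 times. The remaining alternatives (any exonic base, the place of most bases, sharing of at least 50% of the shorter peak, 100 bases around the midpoint for GGAC, a strict finger, the rhein Diff list) moved no count by over 1.5 times and no share out of its interval. With 50% of the peak in finger codons as the rule, 2 of 9 last-exon coding peaks of DMSO Pre lay on fingers rather than 1, and 1 of 26 for DMSO MCE and 1 of 10 for DMSO Diff rather than 0. The transcript chosen by the 25-base step, added after seeing the data, moved 1 Zfp646 site out of the last exon, and with it the last-exon coding share of DMSO MCE was 32.1% (22.7 to 43.0) and the share of its peaks found with rhein 21.0% (13.5 to 31.1). No paired analysis was possible because each condition had 1 peak list. For the same reason no replicate could be left out, and the lists do not give the reads behind a peak, so a gene without a peak may have had too few reads for a call.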
